A study of Homo sapiens with 6 samples.

Results

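The BCL2 family was followed in SNU449 cells after induction of FOXO1AAA. The 10 genes were listed by symbol and were all present in the deposited expression table of 13117 genes. They comprised 6 BH3-only genes (BCL2L11, BBC3, PMAIP1, BMF, BAD and BID), 2 effector genes (BAX and BAK1) and 2 pro-survival genes (BCL2L1 and MCL1). The members were listed by name, by a list drawn up with earlier results of these data known.

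SNU449 is an established human liver cancer cell line. The cells carried pInducer20-FOXO1AAA, a doxycycline-inducible vector for a form of the transcription factor FOXO1 whose AKT phosphorylation sites are replaced by alanine, so that AKT no longer keeps it out of the nucleus. The 3 Dox libraries came from cells given 2 µM doxycycline hydrochloride for 48 h and the 3 Cont libraries from the same construct-bearing cells without the drug. Both groups carried the construct and are labelled WT for genotype, and no library had doxycycline without the construct, so effects of doxycycline itself cannot be told apart from those of FOXO1AAA. The labels do not say whether the line is a clone or a pool, nor whether replicates were separate cultures. The p-values therefore measure the spread between these samples, which could be technical only.

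Proteins of the BCL2 family decide whether the outer mitochondrial membrane stays intact. BAX and BAK1, once activated, open pores in that membrane and release cytochrome c, which assembles the apoptosome and starts the caspase cascade. BCL-XL, encoded by BCL2L1, and MCL1 hold the effectors and their activators in check, and the BH3-only proteins sense stress and act on both. FOXO factors are textbook inducers of BCL2L11, which encodes BIM. In liver, hepatocytes depend on BCL-XL and MCL1 for survival.

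The sequences before the transcription starts are shown for 3 members that stand for the patterns in the data: BCL2L11, the member with the largest rise, BCL2L1, the member with the largest fall, and BAX, an effector that fell. Each is the 250 bases before a RefSeq start on GRCh38.p14, written 5′ to 3′ along the strand of the gene. Capitals mark matches to the FOXO motif GTAAACA or to CACGTG, the E-box bound by MYC and other factors, both searched on both strands (CACGTG reads the same on each). The coordinates are chr2:111120664-111120913 on the plus strand for BCL2L11, chr20:31723964-31724213 on the minus strand for BCL2L1 and chr19:48954625-48954874 on the plus strand for BAX.
BCL2L11: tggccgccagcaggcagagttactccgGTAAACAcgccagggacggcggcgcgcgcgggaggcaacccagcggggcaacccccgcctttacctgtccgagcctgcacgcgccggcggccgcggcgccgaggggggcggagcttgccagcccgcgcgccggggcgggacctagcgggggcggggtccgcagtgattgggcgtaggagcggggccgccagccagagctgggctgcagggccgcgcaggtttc
BCL2L1: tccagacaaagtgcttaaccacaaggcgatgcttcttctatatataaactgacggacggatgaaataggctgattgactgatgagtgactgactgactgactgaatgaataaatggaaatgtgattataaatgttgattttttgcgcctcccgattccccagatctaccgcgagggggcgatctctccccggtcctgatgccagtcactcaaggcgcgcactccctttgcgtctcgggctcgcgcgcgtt
BAX: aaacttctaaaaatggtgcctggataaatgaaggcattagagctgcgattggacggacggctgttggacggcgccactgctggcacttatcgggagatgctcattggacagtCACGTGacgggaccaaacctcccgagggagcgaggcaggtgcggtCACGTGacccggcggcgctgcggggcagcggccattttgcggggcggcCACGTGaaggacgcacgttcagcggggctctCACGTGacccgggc

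RefSeq held start windows of 300 bases (250 before and 50 after the start) for 9 of the 10 members, 16 windows in all because several genes have more than 1 start. The FOXO motif occurred in 1 of these 16 windows, that of BCL2L11, with its first base 223 bases before the start. Of all 35116 windows in the same table, 3.42% held it. The E-box occurred in 4 of the 16 windows, belonging to BAX, BBC3 and BID, against 7.26% of all windows. The BID windows with a match overlap and hold the same site, so it is counted once for each. The BAX window held 4 matches, beginning 138, 93, 45 and 14 bases before its start. The 2 motifs share no overlapping match in these windows. Neither motif was found in the BCL2L1 windows. These matches describe the letters only, and no binding was measured here.

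The libraries of a group resembled each other far more than those of the other group. Across tested genes the lowest correlation of log2(FPKM + 1) was 0.992 between Dox libraries and 0.994 between Cont libraries, and the highest between a Dox and a Cont library was 0.854. Depth was not given in the sources used here. Judged by the spacing of low values, libraries held an estimated 31.3 to 47.1 M reads (Dox) and 28.4 to 41.6 M reads (Cont). FOXO1 mRNA stood at 2.87, 3.50 and 2.01 FPKM in the Dox libraries and 0.741, 0.776 and 0.889 FPKM in the Cont libraries. Whether construct reads were counted under FOXO1 is not known, so these values cannot check the labels or the induction. Mitochondrially encoded genes took 13.2% to 14.7% of the summed FPKM in Dox libraries and 3.00% to 4.67% in Cont libraries. Of 8 hepatocyte markers, 7 (APOA1, APOB, TTR, SERPINA1, HNF4A, TF and CYP3A4) were not analysed here, and ALB stood at 0.850 to 1.71 FPKM in Dox and 0.0941 to 0.571 FPKM in Cont. The 3 epithelial markers KRT8, KRT18 and CDH1 summed to 32.8 to 34.5 FPKM in Dox and 122 to 127 FPKM in Cont. The 4 mesenchymal markers summed to 308 to 367 FPKM in Dox and 954 to 969 FPKM in Cont, a sum that is mostly VIM and in which members moved in both directions. VIM averaged 291 FPKM in Dox and 906 FPKM in Cont and CDH2 21.1 FPKM in Dox and 44.2 FPKM in Cont, whereas FN1 averaged 7.58 FPKM in Dox and 1.37 FPKM in Cont and ZEB1 11.8 FPKM in Dox and 7.66 FPKM in Cont, each without overlap. The hepatoma markers AFP and SOX9 summed to 24.2 to 28.1 FPKM in Dox and 34.4 to 51.0 FPKM in Cont, and GPC3 and EPCAM were not analysed here. AFP overlapped between the groups, at 4.65 to 8.62 FPKM in Dox and 7.34 to 17.1 FPKM in Cont. SOX9 did not, at 19.5 to 20.6 FPKM in Dox and 27.1 to 34.0 FPKM in Cont. The endothelial markers PECAM1 and CDH5 summed to 0.528 to 0.975 FPKM in Dox and 0.306 to 0.401 FPKM in Cont. PECAM1 was higher in Dox (mean 0.742 FPKM, against 0.136 FPKM in Cont) and CDH5 lower (0.0729 FPKM, against 0.206 FPKM in Cont). Both genes were below 1 FPKM in every library and so were not tested. The CDH5 groups nearly met, at 0.0211 to 0.113 FPKM in Dox and 0.116 to 0.300 FPKM in Cont. The leukocyte marker CD14 stood at 2.25 to 2.38 FPKM in Dox and 1.73 to 2.35 FPKM in Cont. The part of these shifts in the results below was not tested.

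All 10 members passed the filter on low values (1 FPKM or more in 3 or more libraries) and all 10 differed between Dox and Cont at an adjusted p under 0.05 in limma, which was fitted across the 11526 genes that passed. In the same comparison 80.4% of all tested genes were called (37.6% higher in Dox, 42.8% lower), so being called does not set the family apart. Of the members, 3 rose and 7 fell. The Dox and Cont values of all 10 members did not overlap, as in 82.1% of all tested genes. A log2 change of at least 1 in size was reached by 6 members, 3 higher and 3 lower, and by 32.9% of the tested genes. The median log2 change was -0.59 over the 10 members and -0.06 over all tested genes.

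**Figure D1:**
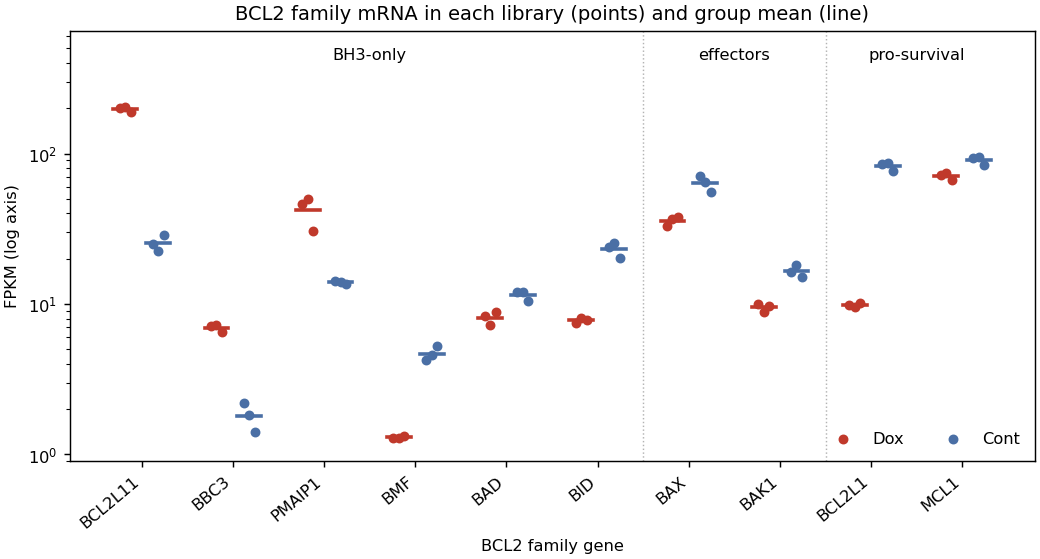
FPKM of each member on a log axis, with 1 point per library, Dox left of Cont, and a line at the mean of the 3 libraries. BCL2L11, BBC3 and PMAIP1 lie higher in Dox and the other 7 members lower, and no member's Dox and Cont points overlap.

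BCL2L11 encodes BIM, a BH3-only protein that binds every pro-survival member and also activates BAX and BAK1 directly. It was at 201, 204 and 189 FPKM in the Dox libraries, against 25.2, 22.4 and 28.7 FPKM in the Cont libraries. All 3 Dox values were far above all 3 Cont values. The means were 198 ± 7.75 FPKM in Dox and 25.5 ± 3.15 FPKM in Cont (SD, n = 3), a ratio of 7.78 (log2 change 2.92, SE 0.09, limma adjusted p = 3.30e-09). Its rise ranked 132 among the tested genes ordered by log2 change, and 2.00% of them had a change of larger size. The gene lies on chromosome 2 from 111119378 to 111168447 (GRCh38, GENCODE 29), and 727 of its 6658 exonic bases are shared with the long non-coding RNA gene MIR4435-2HG on the other strand.

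BBC3 encodes PUMA, a BH3-only protein that binds every pro-survival member. It was at 7.17, 7.26 and 6.48 FPKM in the Dox libraries, against 2.19, 1.84 and 1.40 FPKM in the Cont libraries. The lowest Dox value was well above the highest Cont value, while the Cont libraries varied among themselves (coefficient of variation 21.8%). The means were 6.97 ± 0.43 FPKM in Dox and 1.81 ± 0.394 FPKM in Cont (SD, n = 3), a log2 change of 1.51 (SE 0.12, limma adjusted p = 1.41e-06). On the deposited log2 values, without the 1 FPKM added for the test, the change of BBC3 was 1.97. BBC3 was the member with the fewest estimated reads in Cont, 85.3 to 138 per library.

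PMAIP1 encodes NOXA, a BH3-only protein that binds MCL1 in particular and promotes its degradation. It was at 46.5, 49.6 and 30.6 FPKM in the Dox libraries, against 14.3, 14.05 and 13.7 FPKM in the Cont libraries. The groups did not overlap, but Dox replicate 3 was clearly below the other Dox libraries, and its coefficient of variation in Dox, 24.2%, was the highest of any member in either group. The log2 change was 1.50 (SE 0.15, limma adjusted p = 9.28e-06), and 1.71 without Dox replicate 3.

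BMF, BID and BAD, the other BH3-only members, moved the other way. The product of BMF is held at the cytoskeleton by dynein light chain and released by detachment or other stress. BMF was at 1.30, 1.28 and 1.32 FPKM in the Dox libraries, against 4.22, 4.59 and 5.22 FPKM in the Cont libraries. The 3 Dox values nearly coincided and lay below every Cont value (log2 change -1.30, SE 0.10, limma adjusted p = 1.47e-06). On the deposited log2 values, with no pseudocount added beyond any they already hold, the change was -1.84, since a pseudocount of 1 FPKM weighs on a gene this low. BMF shares 461 of its 5447 exonic bases with the antisense gene BMF-AS1.

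BID links death receptors to mitochondria, since caspase-8 cleaves it to its active form. It was at 7.46, 8.08 and 7.86 FPKM in the Dox libraries, against 24.1, 25.4 and 20.3 FPKM in the Cont libraries, with no overlap. The log2 change was -1.46 (SE 0.09, limma adjusted p = 3.29e-07).

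BAD neutralises BCL-XL unless AKT and other kinases phosphorylate it and 14-3-3 proteins hold it in the cytosol. It was at 8.32, 7.25 and 8.79 FPKM in the Dox libraries, against 11.9, 11.9 and 10.5 FPKM in the Cont libraries. The groups did not overlap, although the gap was narrower than for BID. The log2 change was -0.45 (SE 0.10, limma adjusted p = 0.00157). This call was lost when values were rescaled to TPM after leaving out the genes of the mitochondrial genome, called mitochondria-free TPM from here on (log2 change -0.21, limma adjusted p = 0.0712). BAD shares 404 of its 1708 exonic bases with GPR137 on the other strand, which rose to a mean of 34.8 FPKM in Dox, against 18.9 FPKM in Cont (log2 change 0.85), and the sources used here do not give whether counting used strand.

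The effectors fell together. BAX was at 33.1, 36.5 and 38.0 FPKM in the Dox libraries, against 70.6, 64.2 and 55.4 FPKM in the Cont libraries. All Dox values were below all Cont values (log2 change -0.80, SE 0.10, limma adjusted p = 3.00e-05). BAK1 was at 10.1, 8.82 and 9.71 FPKM in the Dox libraries, against 16.4, 18.1 and 15.1 FPKM in the Cont libraries, again with no overlap (log2 change -0.73, SE 0.09, limma adjusted p = 4.04e-05). The BAX to BAK1 ratio of FPKM within a library was 3.28, 4.14 and 3.91 in Dox and 4.32, 3.55 and 3.68 in Cont, so the balance between the effector mRNAs overlapped between the groups. BAK1 has processed pseudogenes, and the sources used here do not give how shared reads were handled.

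BCL2L1, the gene of BCL-XL, showed the largest fall of the 10 members. It was at 9.78, 9.56 and 10.2 FPKM in the Dox libraries, against 85.6, 86.5 and 76.8 FPKM in the Cont libraries. Both groups were tight, and the highest Dox value was far below the lowest Cont value (log2 change -2.95, SE 0.07, limma adjusted p = 1.43e-09). The mean in Cont was 8.43 times that in Dox, and its fall ranked 96 among the tested genes ordered by log2 change. BCL2L1 lies on chromosome 20 from 31664452 to 31723989, and 1424 of its 3314 exonic bases are shared with the antisense gene ABALON. That is 43% of them, the largest shared part among the members, and whether counting used strand is not given, as for BAD. The same limit holds for the bases that BCL2L11 and BMF share with genes on the other strand. The table holds 1 value per gene, so the long pro-survival and short pro-apoptotic splice forms of BCL2L1 cannot be told apart, and the same holds for the splice forms of BCL2L11 and MCL1.

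MCL1, the other pro-survival member, encodes a short-lived protein with a short-lived mRNA. It was at 71.5, 74.3 and 66.5 FPKM in the Dox libraries, against 93.3, 94.3 and 83.6 FPKM in the Cont libraries. The groups did not overlap, but the difference was the smallest of the 10 members (log2 change -0.35, SE 0.07, limma adjusted p = 0.00164), and 71.9% of all tested genes had a change of larger size. With quantile-normalized values the change was -0.12 and the call was lost (limma adjusted p = 0.141). It was also lost, at -0.07, in mitochondria-free TPM (limma adjusted p = 0.339).

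**Figure D2:**
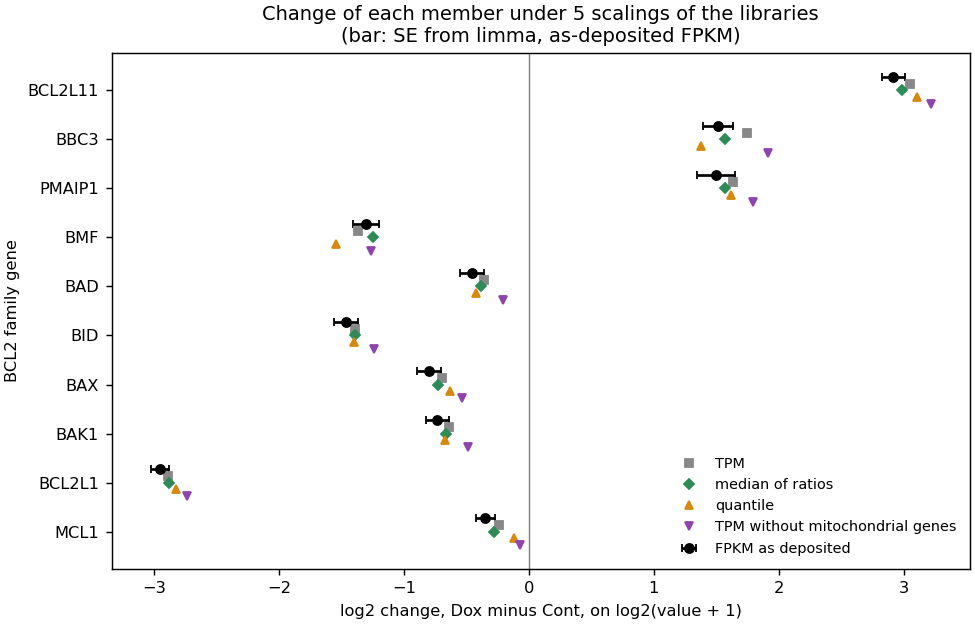
Log2 change (Dox minus Cont) of each member on the log2(value + 1) scale, as deposited with its SE and under 4 other scalings of the libraries. Each of the 10 members keeps its side of 0 under all 5 scalings, and MCL1 comes closest to 0 at -0.07 in mitochondria-free TPM.

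Scaling matters because most genes moved. The median log2 change of all tested genes was -0.06 with FPKM as deposited, 0.06 in TPM, 0.00 with median-of-ratios scaling, -0.04 under quantile normalization and 0.22 in mitochondria-free TPM. Of all calls, 46.7% were higher in Dox as deposited and 60.2% under the last of these. Taken relative to that median, the log2 change ranged over the 5 scalings from 2.98 to 3.14 for BCL2L11, from -2.95 to -2.78 for BCL2L1 and from -0.30 to -0.08 for MCL1. In bulk RNA, fewer cells of a kind and less RNA per cell cannot be told apart.

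**Figure D3:**
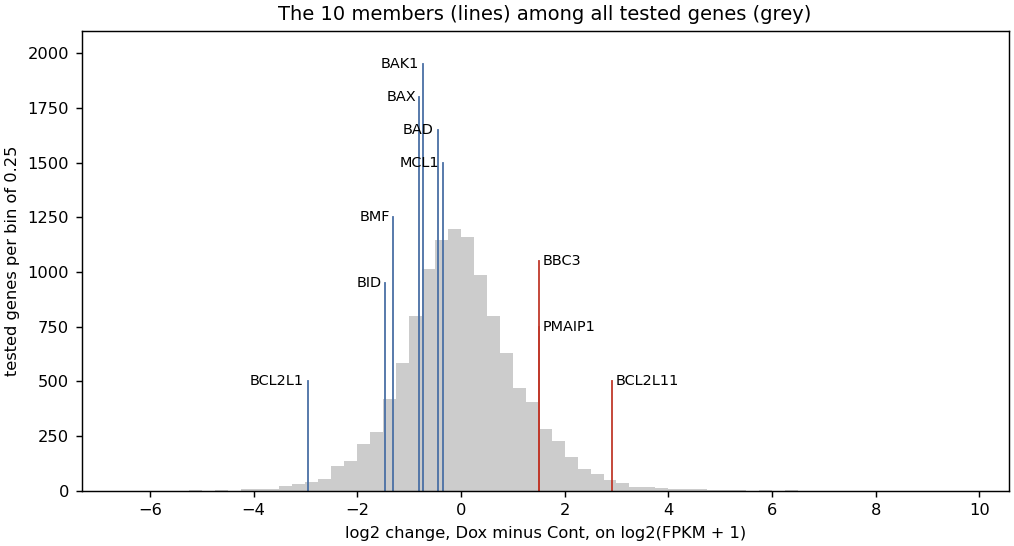
Histogram of log2 changes (Dox minus Cont) of the 11526 tested genes in bins of 0.25, with a line at each member (line heights only separate the names). BCL2L11 at 2.92 and BCL2L1 at -2.95 lie in the tails, whereas MCL1, BAD, BAK1 and BAX lie within the bulk of the genes.

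Ratios between members of the same library do not depend on any factor that scales a whole library. They are described without a test. The BCL2L11 to MCL1 ratio of FPKM was 2.81, 2.75 and 2.85 in the Dox libraries, against 0.270, 0.238 and 0.344 in the Cont libraries. BIM mRNA was thus the more abundant of the pair in every Dox library and the less abundant in every Cont library. The BCL2L11 to BCL2L1 ratio was 20.5, 21.4 and 18.6 in Dox and 0.295, 0.259 and 0.374 in Cont, a ratio of means of 65.2. The MCL1 to BCL2L1 ratio was 7.32, 7.78 and 6.53 in Dox and 1.09 in each of the 3 Cont libraries. The mRNAs of this pair were therefore at near parity in Cont, and MCL1 made up 87.8% of their sum in Dox and 52.1% in Cont on average. With the other pro-survival genes BCL2L2 and BCL2 added to the sum, MCL1 made up 48.2% of it in Dox and 37.3% in Cont.

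The 4 BH3-only genes BCL2L11, BBC3, BMF and PMAIP1 summed to 256, 262 and 228 FPKM in the Dox libraries, against 45.9, 42.9 and 49.0 FPKM in the Cont libraries. BCL2L11 made up 79.8% of that sum in Dox and 55.3% in Cont on average, and BMF made up 0.524% in Dox and 10.2% in Cont. BCL2L1 and MCL1 summed to 81.3, 83.9 and 76.7 FPKM in Dox and 178.9, 180.9 and 160.4 FPKM in Cont. The BH3-only sum divided by the sum of BCL2L1 and MCL1 was 3.14, 3.13 and 2.97 in Dox and 0.257, 0.237 and 0.306 in Cont. It lay above 1 in each Dox library and below 1 in each Cont library. The lower sum leaves out BCL2L2 (mean 64.6 FPKM in Dox and 65.5 FPKM in Cont) and BCL2 (1.89 FPKM in Dox and 3.78 FPKM in Cont). The quotient with these pro-survival genes added was not computed. With BAD and BID included, all 6 BH3-only members summed to 271, 278 and 244 FPKM in Dox and 81.9, 80.3 and 79.9 FPKM in Cont. The ratio of the means, Dox over Cont, was 3.28 for this sum of 6 and 5.41 for the sum of 4. Divided by the sum of BCL2L1 and MCL1, the 6 genes gave 3.34, 3.31 and 3.19 in Dox and 0.458, 0.444 and 0.498 in Cont. The direction of the effector ratios depended on the pro-survival gene. The BAX to BCL2L1 ratio was 3.38, 3.82 and 3.73 in Dox and 0.825, 0.743 and 0.721 in Cont, and the BAK1 to BCL2L1 ratio averaged 0.969 in Dox and 0.199 in Cont. The BAX to MCL1 ratio was 0.462, 0.491 and 0.572 in Dox and 0.757, 0.681 and 0.663 in Cont, and the BAK1 to MCL1 ratio averaged 0.135 in Dox and 0.182 in Cont.

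**Figure D4:**
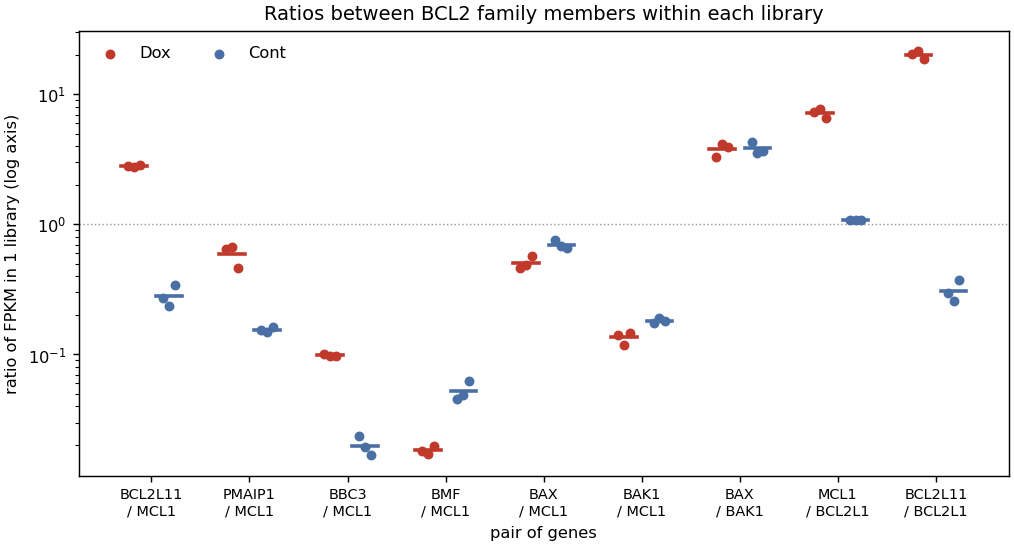
Ratios of FPKM between pairs of members within each library on a log axis, Dox left of Cont, with a line at the mean of the 3 libraries. BCL2L11 over BCL2L1 is near 20 in Dox and near 0.3 in Cont, and BAX over BAK1 is the pair shown whose groups overlap.

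The order of the mRNAs by mean FPKM, a scale that allows for transcript length, also differed. In Dox it ran BCL2L11, MCL1, PMAIP1, BAX, BCL2L1, BAK1, BAD, BID, BBC3 and BMF. The neighbours PMAIP1 and BAX, BCL2L1 and BAK1, and BAD and BID overlapped in their 3 values there. In Cont it ran MCL1, BCL2L1, BAX, BCL2L11, BID, BAK1, PMAIP1, BAD, BMF and BBC3, with overlap between MCL1 and BCL2L1 and between BCL2L11 and BID. BCL2L11 was higher than 96.2% of the listed genes in Dox and 68.2% in Cont, and BCL2L1 higher than 48.1% in Dox and 87.7% in Cont.

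Among the 5 tested genes whose profile over the 6 libraries lay closest to that of BCL2L11, by Euclidean distance of log2(FPKM + 1) after subtracting the Cont mean, were SECISBP2L (distance 0.152), ZNF862 (0.188), TBC1D4 (0.217) and MBD5 (0.252). The closest to BCL2L1 were RCC1 (0.0945), TNFRSF12A (0.121), SMAD3 (0.124), CDT1 (0.130) and PARM1 (0.152). With 2 groups, such closeness reflects mostly a log2 change of the same size, 2.80 to 2.90 for the first 4 genes and -3.005 to -2.89 for the others.

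Of 13 other BCL2 family genes, 9 were analysed and 8 passed the filter, with 2 higher, 4 lower and 2 not called (median log2 change -0.16, against -0.06 for all tested genes). The called share was 75%, near the 80.4% of all tested genes. BCL2L13, a mitochondrial outer membrane protein that acts as a mitophagy receptor, rose to 272 ± 4.15 FPKM in Dox, against 72.3 ± 0.889 FPKM in Cont (SD, n = 3; log2 change 1.90, limma adjusted p = 3.27e-09). BNIP3L, also a mitophagy receptor, rose by less (log2 change 0.49). BOK, an effector-like member that can act without BAX and BAK1, had the highest Cont level among the 19 family genes shown, and fell to 167 ± 9.86 FPKM in Dox, against 439 ± 35.3 FPKM in Cont (log2 change -1.38, limma adjusted p = 1.45e-07). BCL2L12 fell as well (log2 change -1.67).

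BCL2, the founding pro-survival member, was low, at 1.62, 1.92 and 2.13 FPKM in the Dox libraries and 4.37, 3.96 and 3.01 FPKM in the Cont libraries. It fell without overlap (log2 change -0.72, SE 0.13, limma adjusted p = 0.000609). BCL2L2, which encodes the pro-survival BCL-W, was at 54.9, 69.0 and 69.9 FPKM in Dox and 60.9, 72.0 and 63.5 FPKM in Cont, and the groups overlapped (log2 change -0.02, SE 0.10, limma adjusted p = 0.835). Its sign turned under other scalings, and in mitochondria-free TPM it was called at 0.25 (limma adjusted p = 0.0438). In Dox its mean was 64.6 ± 8.43 FPKM, above that of BCL2L1 (9.84 ± 0.317 FPKM). BIK was at 3.07, 2.51 and 2.07 FPKM in Dox and 2.98, 0.767 and 1.36 FPKM in Cont and did not pass (log2 change 0.47, limma adjusted p = 0.117). Without Cont replicate 1 it passed (log2 change 0.79, limma adjusted p = 0.00263), and it passed also with the replicate block (limma adjusted p = 0.0468) and in mitochondria-free TPM (log2 change 0.77, limma adjusted p = 0.0386). BNIP3 fell by 0.29 in log2, a call lost in TPM and in mitochondria-free TPM (limma adjusted p = 0.0544 and 0.849) and after quantile normalization (0.067). HRK was below the filter in every library.

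Downstream of the mitochondria, 2 of 14 apoptosome, caspase and inhibitor genes rose, 8 fell and 4 were not called (median log2 change -0.35, against -0.06 for all tested genes). The called share, 71.4%, compares with 80.4% of all tested genes, of which 37.6% were higher and 42.8% lower. APAF1, the scaffold of the apoptosome, reached 38.5 ± 0.0555 FPKM in Dox, against 6.40 ± 0.248 FPKM in Cont (SD, n = 3; log2 change 2.42, limma adjusted p = 2.50e-09), and CASP9, the caspase it activates, reached 8.10 ± 0.385 FPKM in Dox, against 2.02 ± 0.163 FPKM in Cont (log2 change 1.59). Cytochrome c, encoded by CYCS, fell to 38.2 ± 2.34 FPKM in Dox, against 78.2 ± 10.0 FPKM in Cont (log2 change -1.01, limma adjusted p = 6.26e-06). The inhibitor genes BIRC5 and BIRC3 fell (log2 change -1.86 and -1.85), whereas XIAP, which inhibits the executioner caspases, was at 277 ± 4.08 FPKM in Dox and 290 ± 5.77 FPKM in Cont (log2 change -0.06, limma adjusted p = 0.336). The sign of the XIAP change turned with scaling, and it was called higher in Dox after quantile normalization (log2 change 0.23, limma adjusted p = 0.0057) and in mitochondria-free TPM (0.22, limma adjusted p = 0.00736). The count of rises in this list depended on scaling, with 5 in TPM, 5 with median-of-ratios scaling, 4 under quantile normalization and 6 in mitochondria-free TPM, where 5 fell.

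Of 20 genes of proteins that bind or modify the members, 19 were analysed and tested, with 5 higher, 12 lower and 2 not called (median log2 change -0.68, against -0.06 for all tested genes). The called share was 89.5%, against 80.4% of all tested genes (37.6% higher and 42.8% lower). FBXW7, a ubiquitin ligase subunit that directs MCL1 to degradation, rose to 28.5 ± 2.34 FPKM in Dox, against 3.86 ± 0.264 FPKM in Cont (SD, n = 3; log2 change 2.60, limma adjusted p = 5.79e-09). PIM1 and PIM2, kinases that phosphorylate BAD, fell (log2 change -1.67 and -1.54). All 6 analysed genes of 14-3-3 proteins fell, from -0.35 for YWHAB to -1.83 for YWHAH, where 42.8% of all tested genes were called lower. However, YWHAB was no longer called under quantile normalization or in mitochondria-free TPM, which left 5. DYNLL1 and DYNLL2, the light chains that hold BIM and BMF, fell by 0.72 and 0.68 in log2. VDAC2, a membrane channel that BAK1 and BAX use as a platform, fell to 122 ± 3.62 FPKM in Dox, against 255 ± 9.54 FPKM in Cont (log2 change -1.06). The 14-3-3 and light chain genes, CYCS, VDAC2, FOXO3, XIAP and GPR137 were singled out after their values were seen.

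All 11 transcription factors listed as acting on BH3-only genes were called, 4 higher and 7 lower (median log2 change -0.78, against -0.06 for all tested genes). Of all tested genes, 80.4% were called, 37.6% higher and 42.8% lower, and with so many genes called a list of 11 that all pass is no result about these factors. FOXO3 rose along with FOXO1 (log2 change 1.20 and 1.06), and so did CREB1 (1.90). The pseudocount of 1 FPKM weighs on FOXO1, which is low. The ratio of mean FPKM, Dox over Cont, was 2.56 for FOXO3 and 3.48 for FOXO1. MYC fell most (log2 change -3.21), followed by E2F1 (-2.10) and JUN (-1.57).

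**Figure D5:**
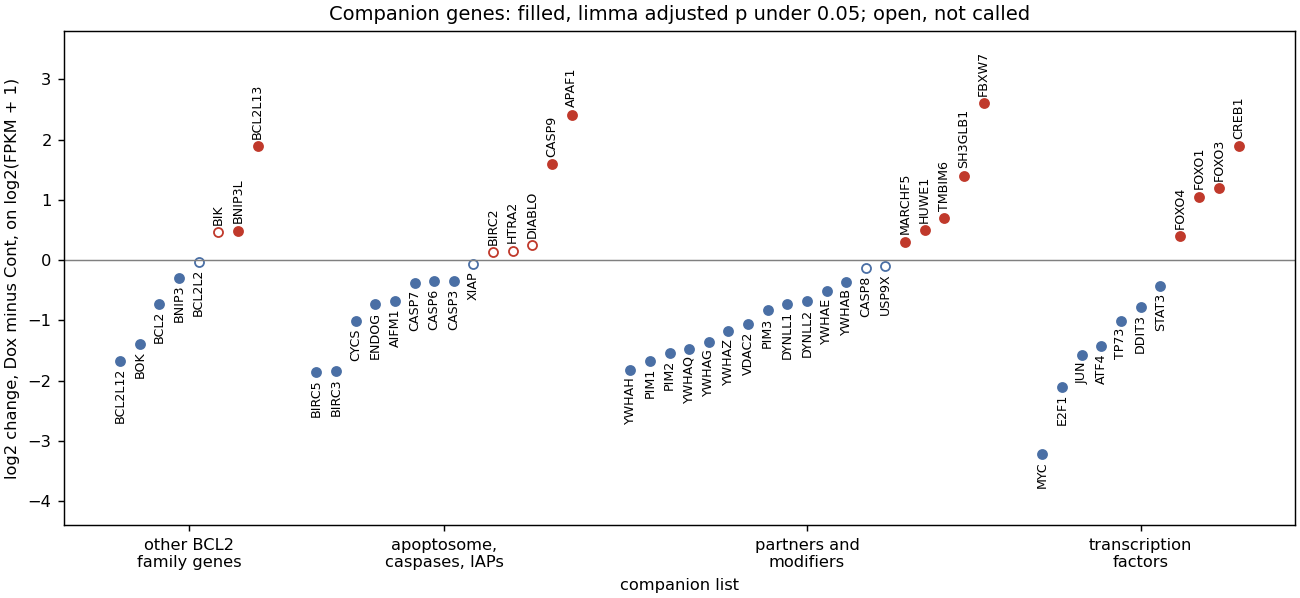
Log2 change (Dox minus Cont) of the tested genes of the 4 companion lists, ordered by size within each list, with filled points for a limma adjusted p under 0.05. APAF1, FBXW7, BCL2L13 and CREB1 lie highest in their lists and MYC lowest of all at -3.21.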

How the data were processed

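mRNA was profiled in 6 libraries made by poly(A) capture, per the labels' protocols. FastQC 0.11.7 and GRCh38 are named in the submitters' processing notes; the aligner, counter and filters are not given in the sources used here. The authors deposited log2 values of FPKM (fragments scaled by transcript length and library size), from -8.59 to 13.9. The design assumed FPKM, so FPKM was taken as 2 to the power of the deposited value. The label of the first Cont sample names the column of the second, and columns were matched by title. The 10 members, the 4 companion lists and the markers were chosen with earlier results of these data known. Some genes of the lists and rules are not reported here.

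The 11526 genes at 1 FPKM or more in 3 or more libraries were tested and 1591 were not. The test was that of limma 3.58.1 (R 4.3.3), two-sided, fitted to log2(FPKM + 1) with a mean-variance trend and Benjamini-Hochberg adjustment over all tested genes; the threshold was 0.05. Changes are Dox minus Cont on that scale, which understates those of low genes. The fit was tested on simulated data. Named were all members, the other family genes, up to 4 called genes of each list with the largest changes, and 5 genes closest in profile to BCL2L11 and BCL2L1. Depth was estimated from 307 genes in which at least 2 libraries shared a lowest value, taken as 0 reads. The estimate takes the deposited values to hold an added offset, fitted at 1.58 to 2.62 reads per library. This offset was not taken out of the FPKM used here. The offset was fitted on only 30 (Dox replicate 1) to 92 (Dox replicate 3) values per library. It was fitted so that values up to 20 reads fell on whole reads, and they lay within 0.05 of them in all libraries. That closeness is therefore no separate check. Of these values 58.7% to 80.0% per library were even, and whether the unit is a read or a pair was not tested. Read numbers use the longest GENCODE 29 transcript and are rough. Alternatives were pseudocounts of 0.1 and 0.01, the deposited log2 values, no filter, a filter at FPKM 5, 4 other scalings, other variance models, the replicate number as a block, and leaving out each library.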

Additional observations from a re-analysis of the deposited data

How the results depend on the processing

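Of 179 values of the 10 members under the alternatives, 176 kept their direction and side of the threshold. The exceptions were BAD in mitochondria-free TPM (-0.21) and MCL1 under quantile normalization (-0.116) and in the same TPM (-0.0717), all still below 0; the cause was not tested. Mitochondria-free TPM leaves out mitochondrially encoded genes. BMF was not tested at a filter of FPKM 5. The sums over all 6 BH3-only members and with BCL2L2 and BCL2 were chosen after seeing the data. The first lowered the ratio of means of the BH3-only quotient to 7.03, against 11.6 with 4 genes. That quotient had only BCL2L1 and MCL1 in its lower sum, and no alternative to this lower sum was computed. Leaving out any 1 library kept 3 members higher and 7 lower. Counts moved in the companion lists. In mitochondria-free TPM, 4 other family genes were higher, and 6 apoptosome, caspase and inhibitor genes were higher and 5 lower. That list had 5 higher in TPM and with median-of-ratios scaling, and 4 under quantile normalization. With a filter at FPKM 5, 2 transcription factors were higher, since fewer genes were tested. BCL2L2, not called with FPKM as deposited, turned to 0.0897 in TPM, 0.0482 with median-of-ratios scaling, 0.18 under quantile normalization and 0.25 in mitochondria-free TPM, and ranged from -0.0848 to 0.0872 when 1 library was left out, being above 0 without Cont replicate 2 (0.0448) or Dox replicate 1. XIAP turned to 0.0508 in TPM, 0.00922 with median-of-ratios scaling, 0.232 under quantile normalization and 0.215 in mitochondria-free TPM. Of 591 values of the other named genes, 573 kept their direction and side.

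The replicate block gave 4335 genes higher and 4937 lower, against 4329 and 4936 without it. Same-numbered libraries did not deviate together (correlations 0.0371, -0.00483 and 0.0793 for numbers 1 to 3), and not every library correlated best with its own number, so the numbers were not taken as pairs. Among named genes the block changed the call of BIK only. Depth limits BBC3 most, with an estimated 85.3 reads in its lowest library.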
